A study of Mus musculus with 24 samples.

Results

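The genes described here are 10 markers of dividing cells, measured in 4 tissues of adult mice in which most cells have left the cell cycle. They were fixed as a list of symbols: Ccnd1, Pcna, Mcm2, Ccna2, Cdk1, Ccnb1, Top2a, Mki67, Birc5 and Aurkb. All 10 were found, by 17 probes, among the 21368 genes that could be named on the array. For 9 of the 10, at least 1 array read the gene well above background, the scanner program's own call that a spot is brighter than its local background, and for 5 of them (Ccnd1, Pcna, Mcm2, Mki67 and Birc5) all 24 arrays did. No array read Aurkb well above background, so no difference is given for it.

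Liver, brain, heart and skeletal muscle came from 6 female mice backcrossed to C57BL/6N, each of which gave all 4 tissues, so that the 24 arrays form 8 groups of 3. In 3 mice (A, B and C) both alleles of Rap1 (gene symbol Terf2ip), a telomere protein, carried the I312R point mutation, called RAP1 MUT in the labels and KI (knockin) here, and 3 mice (D, E and F) were wild type (WT). Mice C and F were 14 months old and the others 15 months, and the labels name no treatment. The mutated protein cannot bind TRF2 and is found away from telomeres. The mutation was carried in every cell from the germ line, an expression probe does not read it, and no source used here gives the number of founders. The study asked how RAP1 away from telomeres alters gene transcription in ageing tissues, and it also followed spontaneous tumours, which gives the proliferation genes their place. Levels are log2 of the processed spot signal minus the 75th percentile of the same array, so a level of 0 is that percentile, a difference of 1 on this scale is a ratio of signals given below as a fold, and the level of one gene is never set against that of another because probes differ in brightness.

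A cell that enters the cycle raises D-type cyclins, which activate CDK4 and CDK6 and so release E2F transcription factors from the retinoblastoma proteins. E2F then switches on the DNA replication genes, among them the MCM helicase and the sliding clamp PCNA, and later a second wave of genes for G2 and mitosis is switched on, including A- and B-type cyclins, CDK1, topoisomerase II alpha, Ki-67, survivin and Aurora B. In resting cells the DREAM complex holds many of these genes silent, binding promoters through E2F sites and through CHR elements, and NF-Y acts at CCAAT boxes in the same promoters. In adult mice hepatocytes, neurons, cardiomyocytes and muscle fibres rarely divide, while blood-forming marrow, lymphocytes and some endothelial and glial cells do, and cyclin D1 is also made in resting cells of several tissues.

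RefSeq promoter windows of the build GRCm38.p6, each from 250 bases before to 50 after a transcript start, were at hand for 7 of the 10 genes. Of these, 6 held a CCAAT box (CCAAT on either strand), which 37.4% of all 32851 windows hold, and 4 held a CHR element (TTTGAA or TTCGAA on either strand), which 19.2% of all windows hold. Motifs were counted separately even where they shared letters, and a match is only a description of letters. The stretches below lie upstream of every annotated start of the gene and are written 5' to 3' on its strand, with CCAAT boxes (also as ATTGG) and CHR elements (also as TTCAAA) in capitals. The first 5 genes shown were highest together on 1 muscle array (below), while Pcna, shown last, was not. Mcm2 was also highest on that array, but its window is not printed.
Mki67 (chr7:135716451-135716579, minus strand): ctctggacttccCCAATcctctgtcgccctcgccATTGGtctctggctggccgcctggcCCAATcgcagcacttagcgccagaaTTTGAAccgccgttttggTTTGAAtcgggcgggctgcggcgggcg
Top2a (chr11:99024200-99024389, minus strand): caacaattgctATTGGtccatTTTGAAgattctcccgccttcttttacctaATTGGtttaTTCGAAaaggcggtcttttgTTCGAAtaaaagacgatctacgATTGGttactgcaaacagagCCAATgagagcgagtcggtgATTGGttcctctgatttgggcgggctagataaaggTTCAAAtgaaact
Cdk1 (chr10:69352913-69353112, minus strand): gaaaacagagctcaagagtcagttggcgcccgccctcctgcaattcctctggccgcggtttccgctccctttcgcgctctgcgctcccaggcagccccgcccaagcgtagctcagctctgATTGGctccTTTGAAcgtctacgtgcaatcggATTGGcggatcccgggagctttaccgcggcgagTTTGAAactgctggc
Ccnb1 (chr13:100786487-100786686, minus strand): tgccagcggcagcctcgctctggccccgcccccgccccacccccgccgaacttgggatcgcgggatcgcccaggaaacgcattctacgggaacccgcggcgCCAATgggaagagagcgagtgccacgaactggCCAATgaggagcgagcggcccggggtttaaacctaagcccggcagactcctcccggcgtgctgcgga
Birc5 (chr11:117849037-117849236, plus strand): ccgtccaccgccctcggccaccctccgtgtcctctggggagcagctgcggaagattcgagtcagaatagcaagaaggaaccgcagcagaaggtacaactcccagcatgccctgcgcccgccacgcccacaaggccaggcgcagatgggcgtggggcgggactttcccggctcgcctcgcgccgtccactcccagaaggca
Pcna (chr2:132253181-132253380, minus strand): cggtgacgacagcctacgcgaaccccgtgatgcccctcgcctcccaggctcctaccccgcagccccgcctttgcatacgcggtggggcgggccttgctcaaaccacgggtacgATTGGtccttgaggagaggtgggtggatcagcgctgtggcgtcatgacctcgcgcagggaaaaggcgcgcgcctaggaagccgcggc
Top2a held the most marked letters, with 5 CCAAT boxes and 4 CHR elements in the stretch shown. Mki67 held 3 and 2, and Cdk1 held 2 of each. Ccnb1 held 2 CCAAT boxes and no CHR element, Pcna held 1 CCAAT box, and Birc5 held neither motif. Mcm2, whose window is not printed, held 1 of each.

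The tissues could be told apart by their own markers, and some arrays also carried transcripts of another tissue. The 75th percentile lay between a signal of 312.5 and 2519.4, lowest in muscle (312.5 to 593.2) and highest in brain (1401.0 to 2519.4), and 50.6% to 69.4% of probes were well above background on an array. The mean level of 8 hepatocyte genes was 7.62 to 8.26 in liver and below -2 on other arrays, except 3.21 in the brain of KI mouse C. The mean level of 8 skeletal muscle genes was 7.66 to 8.14 in muscle and, in liver, 0.80 for KI mouse C against at most -4.57 in the other 5. The muscle arrays of KI mouse B and WT mouse D carried marrow and bone transcripts, as described below, and the members' differences from muscle are given with and without them. Values of single genes outside the 10 against muscle rest on all 6 muscle arrays. The arrays lay on 3 slides, with all liver arrays on slide 1 and all muscle arrays on slide 3. RNA came from whole tissue, so fewer dividing cells and less RNA per cell cannot be told apart.

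Across tissues, liver had the highest cyclin D1 and Pcna, brain had the lowest Mki67, and skeletal muscle had the highest Mcm2. Ccnd1 encodes cyclin D1, the growth-factor-responsive partner of CDK4 and CDK6. Its level (lowest, median and highest of 6 arrays) was 3.99, 4.42 and 4.80 in liver. Heart followed with 2.88, 3.27 and 3.46, then brain with 1.97, 2.12 and 2.28, and muscle was last with 0.44, 0.80 and 1.64. The 4 tissues did not overlap on any array. Each neighbour in this order differed: liver was above heart by 1.15 (SE 0.17, 2.22-fold, limma adjusted p 3.6e-06), the brain minus heart difference was -1.14 (SE 0.17, adjusted p 4.49e-06), and brain was above muscle by 1.23 (SE 0.17, adjusted p 1.34e-06). From end to end, the signal in liver was 11.5-fold that in muscle (log2 difference 3.52, SE 0.17, adjusted p 2.17e-13).

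The replication genes differed less. Pcna, the clamp that holds DNA polymerase on its template and also serves in DNA repair, spanned only 0.92 on the log2 scale over all 24 arrays, a 1.89-fold range. Its level was 3.28, 3.43 and 3.54 in liver. The other tissues lay close together, with 2.96, 3.00 and 3.19 in brain, 2.71, 2.96 and 3.12 for heart, and 2.62, 2.67 and 2.94 for muscle. Every liver array was above every other array. Liver exceeded brain by 0.38 (SE 0.09, 1.30-fold, limma adjusted p 0.000827), although with quantile normalization that Pcna difference was -0.21, and exceeded heart by 0.50 (SE 0.09, adjusted p 5.1e-05) and muscle by 0.69 (SE 0.09, adjusted p 7.2e-07). Brain and heart did not differ beyond their spread in Pcna (0.12, 95% interval -0.07 to 0.31, adjusted p 0.226), nor did heart and muscle (0.19, adjusted p 0.0649). Mcm2, a subunit of the replicative helicase that is loaded on origins before S phase, followed another order: -0.20, 0.06 and 0.57 in muscle, -0.92, -0.72 and -0.33 in heart, -1.54, -0.92 and -0.78 in liver, and -1.89, -1.43 and -1.26 in brain. Muscle stood above all arrays of the other tissues. The heart minus muscle difference of Mcm2 was -0.76 (SE 0.16, limma adjusted p 0.000264), the liver minus heart difference was -0.35 (SE 0.16, adjusted p 0.0484), and liver was above brain by 0.51 (SE 0.16, adjusted p 0.006), where the arrays overlapped.

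Of the S, G2 and mitosis genes, Mki67 was lowest in brain. Mki67 encodes Ki-67, a coat protein of mitotic chromosomes found in all active phases of the cycle. Its level was -3.71, -3.35 and -2.52 in brain, -0.30, 0.06 and 0.34 in heart, -0.78, -0.66 and 1.33 in liver, and -2.32, -2.04 and 2.31 in muscle. No brain array reached the lowest array of any other tissue. The highest brain value, -2.52, was that of KI mouse C, whose brain array carried liver transcripts. That array was also the highest brain array in granulocyte genes (mean level -1.31), bone genes (-1.60 against at most -3.05) and fibroblast genes (1.67 against at most 0.46). WT mouse E was next in granulocyte genes (-1.57), with Mki67 at -3.69. The part of such transcripts in these values was not tested. The Mki67 signal was 8.65-fold higher in liver than in brain (log2 difference 3.11, SE 0.67, limma adjusted p 0.000274) and 10.2-fold higher in heart (brain minus heart -3.35, SE 0.67, adjusted p 0.000138), and liver and heart were not told apart (-0.24, 95% interval -1.64 to 1.16, adjusted p 0.747). All 8 genes of a neural progenitor and neuroblast list were well above background on the 6 brain arrays (mean level -1.93 to -1.18). All 5 genes of an oligodendrocyte progenitor list were too (1.37 to 1.64). Not every gene of these lists was highest in brain: Cd24a was higher in muscle, Neurog2 in liver and Cspg4 in heart. Sox11, Dlx2, Gpr17, Olig1 and Olig2, among others, were highest in brain. That a list is read does not show that its cells divide.

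Birc5 encodes survivin, a subunit of the chromosomal passenger complex that Aurora B drives. Its level was -0.64, -0.41 and 0.15 in liver. Heart gave -1.36, -0.95 and -0.58, brain gave -2.22, -1.76 and -1.65, and muscle gave -3.22, -2.30 and 2.24. Liver was above brain on every array, by 1.58 (SE 0.69, 2.99-fold, limma adjusted p 0.0402). Every brain array was below every heart array as well. With the spread shared by all 24 arrays that difference did not pass (-0.95, SE 0.69, limma adjusted p 0.21). It was -0.95 (SE 0.18, limma adjusted p 0.000145) without the 2 muscle arrays that stand apart. Those were left out after their high Birc5 was seen, which shrinks the shared spread, so that p is no independent test. Ccna2, cyclin A2, the partner of CDK2 in S phase and of CDK1 in G2, read -2.77, -1.91 and -1.46 in liver, -1.94, -1.60 and -1.34 in heart, and -3.85, -3.38 and -3.12 in brain, all well above background. Both liver and heart lay above brain in Ccna2 on every array, by 1.41 (SE 0.66, adjusted p 0.0554) for liver and, as brain minus heart, -1.79 (SE 0.66, adjusted p 0.0182).

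Cdk1, Ccnb1 and Top2a were close to background in part of the arrays. Cdk1, the kinase of mitosis, was well above background on 6 liver, 5 heart, 3 brain and 1 muscle arrays, with levels of -3.66 to -2.93 in liver, -5.17 to -4.12 in heart and -7.22 to -5.71 in brain. Cdk1 was above heart in liver by 1.19 (SE 0.45, 2.28-fold, limma adjusted p 0.0212). Its liver minus brain difference was 3.01 (SE 0.45, adjusted p 4.59e-06), with 3 of 6 brain arrays not well above background, so no fold is given. Ccnb1, cyclin B1, its mitotic partner, was well above background on 5, 6, 5 and 2 arrays of liver, heart, brain and muscle, and its brain minus heart difference was -1.77 (SE 0.53, adjusted p 0.00489). Top2a, which untangles replicated DNA, was well above background on 4, 6, 1 and 2 arrays, and its brain minus heart difference was -2.65 (SE 0.56, adjusted p 0.00025), a size that rests on brain values of which 5 of 6 were not well above background. Top2a in heart was even, at -4.05 to -3.62. In liver, the 2 arrays not well above background in Top2a were those of KI mouse C (-4.95) and WT mouse E (-4.41), and the other 4 lay between -3.62 and -3.38.

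**Figure D1:**
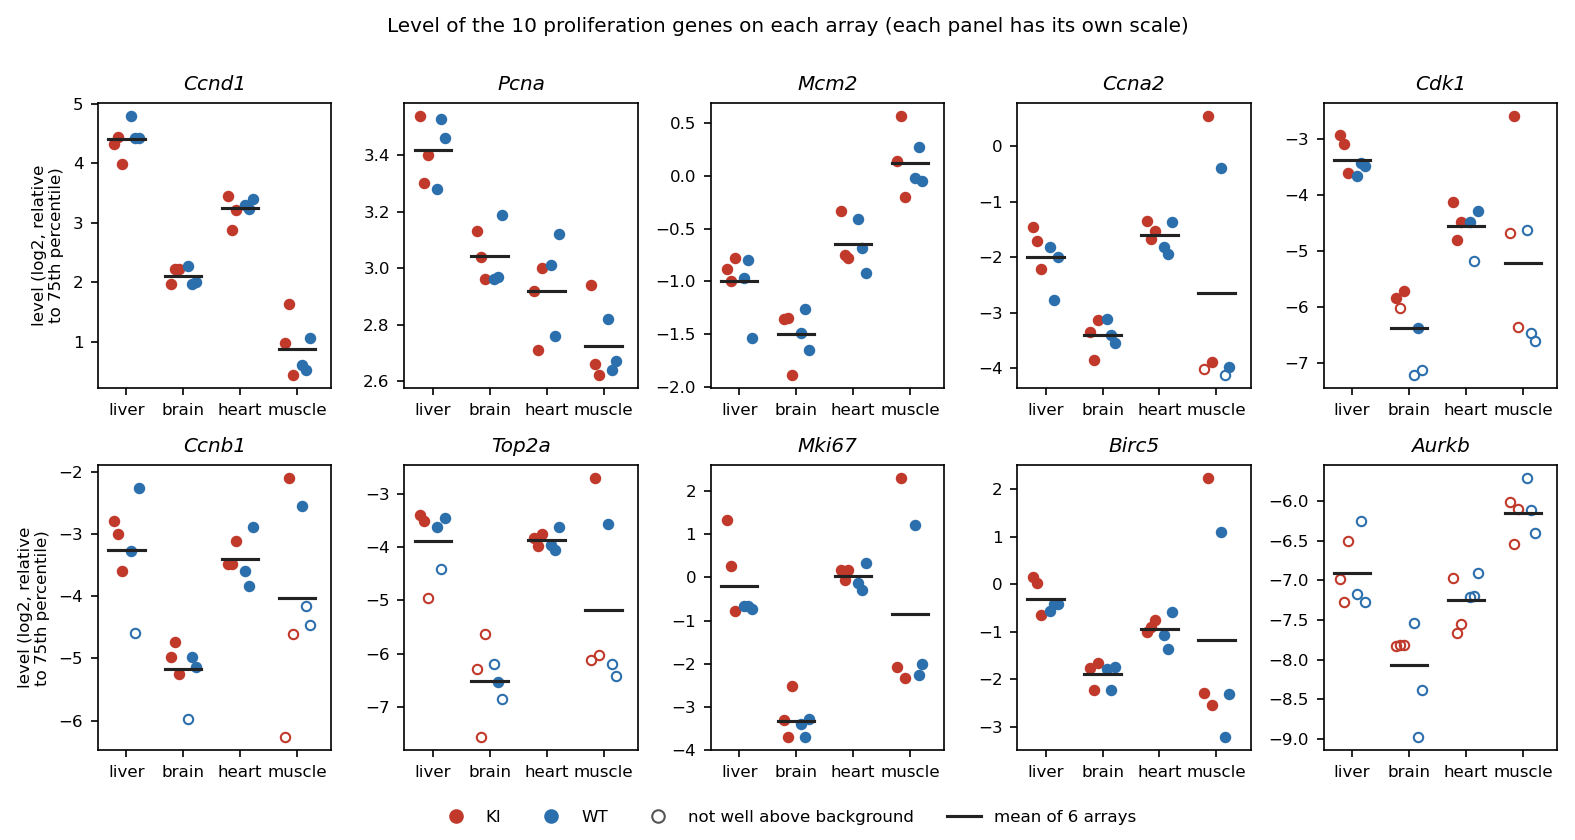
Level of each gene (log2 relative to the array's 75th percentile, vertical axis, 1 scale per panel) on every array by tissue, with KI in red, WT in blue, open circles where the spot was not well above background, and a bar at the mean of the 6 arrays. Ccnd1 steps down from liver through heart and brain to muscle without overlap, and in the muscle columns of Ccna2, Ccnb1, Top2a, Mki67 and Birc5 a KI and a WT array stand above the other 4.

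Counted over the genes, the members that passed all went 1 way in 2 of the 6 tissue pairs, and the background of calls was large because the tissues differ in most of their genes. Against brain, 6 of 7 tested members were higher in liver and 0 lower, where 45.4% of all 16361 genes tested were higher and 40.0% lower. Against heart, 0 of 8 were higher in brain and 6 lower (36.5% and 44.7% of all genes). The other pairs were mixed: 3 higher and 1 lower of 9 for liver against heart (38.1% and 42.0% of all genes), 3 higher and 1 lower of 7 for liver against muscle (40.1% and 44.2%), 2 higher and 2 lower of 6 for brain against muscle (37.9% and 46.2%), and 2 higher and 1 lower of 8 for heart against muscle (33.5% and 35.7%). A gene was tested where all 6 arrays of at least 1 of the 2 tissues read it well above background, so genes that are off in both tissues are not among those counts, and a member let in by its higher tissue alone, such as Top2a for brain against heart and Cdk1 for liver against brain, could hardly lean the other way. Without the muscle arrays of mice B and D, the spread of the members shrank and more passed: 7 of 7 for liver against brain, 5 of 9 for liver against heart, 6 higher and 1 lower of 7 for liver against muscle, 0 higher and 7 lower of 8 for brain against heart, 4 higher and 2 lower of 6 for brain against muscle, and 6 higher and 1 lower of 8 for heart against muscle. That setting was chosen after the members' values on those arrays were seen. Leaving out high values shrinks the spread, so these counts are descriptions only.

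Slide and tissue could be separated only in part. RNA of liver and brain was extracted with another kit than that of heart and muscle. Kit therefore cannot be told apart from tissue where liver or brain is set against heart or muscle. With slide as a block, 4, 2, 3, 6, 3 and 3 members passed for liver against brain, liver against heart, liver against muscle, brain against heart, brain against muscle and heart against muscle. Fits within a slide rest on few arrays, since slide 1 held brain arrays of mice A and D alone and slide 3 heart arrays of mice C and F alone. Within the 1 slide that held both tissues, 6 passed for liver against brain, 7 for brain against heart and 2 for heart against muscle. Ccnd1 passed in all of these, and its liver minus brain difference was 2.27 (limma adjusted p 1.14e-05) within slide 1, its brain minus heart difference -1.11 within slide 2 and its heart minus muscle difference 2.43 within slide 3.

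Genes that work beside the members were described as 5 lists. Of 29 genes of origin licensing and DNA synthesis, 18 were higher and 2 lower of 27 tested in liver against brain (45.4% and 40.0% of all genes). In brain against heart, 5 were higher and 16 lower (36.5% and 44.7% of all genes). Tk1, thymidine kinase of the salvage pathway, was at 3.79 ± 0.11 (SD, n = 6) in liver against -4.02 ± 0.93 in brain, a log2 difference of 7.81 (SE 0.27, limma adjusted p 1.44e-15), and -0.70 ± 0.20 in heart. Mcm10, a replication initiation factor, was at 4.37 ± 0.08 in liver against -3.01 ± 0.80 in brain and -3.41 ± 0.17 in heart (7.38 and 7.78, SE 0.49 for both). In the opposite direction, Fen1, the flap endonuclease, was lower in liver than in brain (-1.10, SE 0.14), as was Chaf1a, a chromatin assembly subunit (-0.57, SE 0.15), and Gmnn, the inhibitor of origin licensing (-1.97, SE 0.14), and Pold1, the catalytic subunit of DNA polymerase delta (-1.03, SE 0.12), were lower in liver than in heart.

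Of the 49 G2 and mitosis genes on the array, 14 were higher and 7 lower of 36 tested in liver against brain (45.4% and 40.0% of all genes). The counts were 7 and 10 of 39 in liver against heart (38.1% and 42.0% of all genes). They were 8 and 18 of 42 in brain against heart (36.5% and 44.7%). Cks2, a small CDK-binding subunit, was at 0.06 ± 0.13 in liver against -4.27 ± 0.32 in brain (log2 difference 4.32, SE 0.34, limma adjusted p 4.88e-10) and -4.40 ± 0.10 in heart. Spc25, a kinetochore protein, was also higher in liver than in brain (3.25, SE 0.27), and Ccnf, cyclin F, higher in liver than in heart (4.32, SE 0.31). Stmn1 and Anln were among the 7 genes that were higher in brain: Stmn1, the microtubule destabiliser stathmin, which neurons also make, was at 6.78 ± 0.18 in brain against 1.31 ± 0.22 in liver (-5.47, SE 0.24), and Anln, anillin, a scaffold of the cleavage furrow that oligodendrocytes also make in myelin, was at 2.64 ± 0.25 against -2.22 ± 0.32 (-4.86, SE 0.18). In muscle, Aurka, the Aurora A kinase, was higher than in brain (brain minus muscle -4.14, SE 0.22) and Ndc80, a kinetochore protein, at -3.25 ± 0.51 against -6.43 ± 0.91 (-3.18, SE 0.33), where only 2 of 6 brain arrays read Ndc80 well above background. Cenpf, a kinetochore protein of G2 and mitosis, was well above background on all 6 heart arrays (-2.73 ± 0.86) and on none of the 6 liver arrays, at least 4.95-fold higher in heart (adjusted p of the fit 2.75e-11), the bound being the heart mean against a liver mean in which each array's value was raised to the lowest signal it read well above background. Cenpa, the centromeric histone variant, was lower in liver than in heart (-2.22, SE 0.24).

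The G1/S control genes split between tissues. Cdk2, the kinase of S phase entry, was higher in liver than in brain (log2 difference 3.50, SE 0.15, limma adjusted p 4.45e-14) and heart (1.14, SE 0.15), and E2f2 higher in liver than in brain (1.62, SE 0.31) but lower than in heart (-1.30, SE 0.31), while E2f1 was higher in liver than in heart (1.29, SE 0.30). Ccne1, cyclin E1, was lower in liver than in brain (-3.72, SE 0.21), and Ccnd2, cyclin D2, lower in liver than in brain (-1.44, SE 0.13) and heart (-3.45, SE 0.13), the reverse of Ccnd1. Brain stood above muscle in Ccne1 (2.56, SE 0.21) and E2f1 (2.51, SE 0.30) and below it in E2f2 (-3.91, SE 0.31) and Myc (-2.04, SE 0.27). In all, 5 of 10 tested were higher and 5 lower in liver against brain (45.4% and 40.0% of all genes). In brain against heart, 2 were higher and 7 lower (36.5% and 44.7% of all genes).

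The CDK inhibitors and pocket proteins, which hold cells out of the cycle, were lower in liver than in striated muscle for most members. Against heart, 0 were higher and 6 lower of 10 (38.1% and 42.0% of all genes). Against muscle, 1 was higher and 7 lower (40.1% and 44.2%), with a median difference of -1.44 (all genes -0.10). Brain was likewise lower, with 1 higher and 8 lower of 10 against both heart (36.5% and 44.7% of all genes) and muscle (37.9% and 46.2%). Cdkn1c, p57, differed by -1.97 between liver and heart (SE 0.11, limma adjusted p 6.23e-12), Cdkn2d, p19, by -1.53 (SE 0.10), and Cdkn1b, p27, and Cdkn2c, p18, by less (-0.71 and -0.46). Cdkn2c in muscle exceeded brain most (brain minus muscle -3.76, SE 0.18), followed by Cdkn2b, p15 (-2.95, SE 0.30), and Cdkn1a, p21 (-0.59, SE 0.24, adjusted p 0.0327), was also above brain, but Cdkn2d was higher in brain (1.10, SE 0.10). Against brain, liver was higher in Cdkn2c (2.44, SE 0.18) and Cdkn2a (2.36, SE 0.38) and lower in Cdkn2d (-2.82, SE 0.10) and Cdkn1a (-1.51, SE 0.24).

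Of the 9 DREAM and MuvB genes, which repress the cycle genes in resting cells, 2 were higher and 0 lower in liver against brain (45.4% and 40.0% of all genes). The 2 were Lin9 (log2 difference 0.54, SE 0.14, limma adjusted p 0.00123) and Rbbp4 (0.54, SE 0.18). In liver against muscle, 3 were higher and 4 lower (40.1% and 44.2% of all genes), and 3 and 5 without the muscle arrays of mice B and D. Liver exceeded heart in Rbbp4 (0.69, SE 0.18) and Lin37 (0.54, SE 0.16), and was lower in Tfdp2, an E2F partner (-1.83, SE 0.12). Brain exceeded muscle in E2f5 (1.84, SE 0.29) and Lin37 (1.01, SE 0.16), and was lower in Tfdp2 (-2.11, SE 0.12) and Lin9 (-1.65, SE 0.14).

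**Figure D2:**
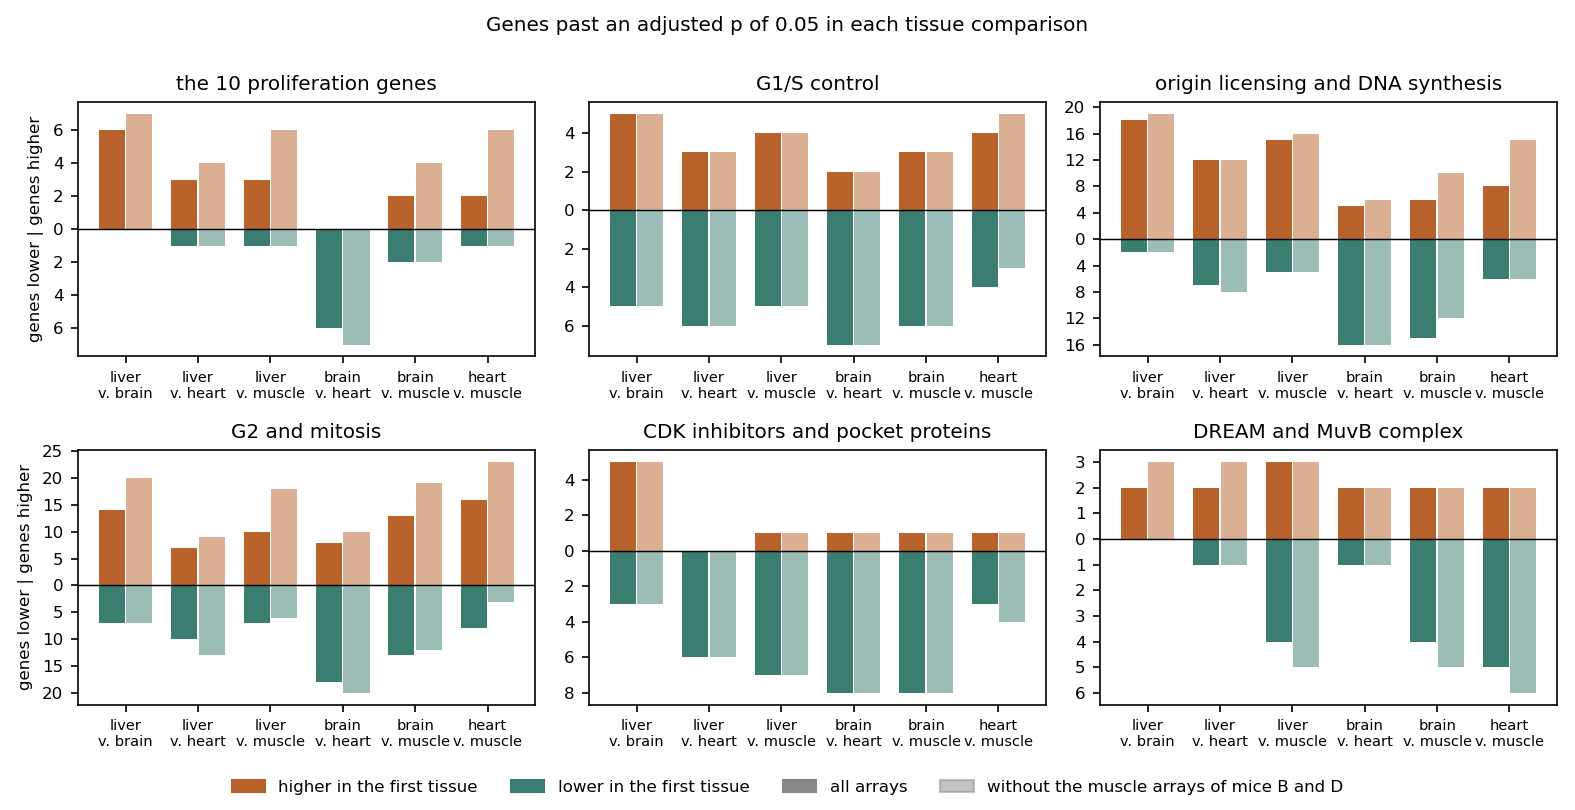
Number of genes past an adjusted p of 0.05 in each of 6 tissue comparisons for the members and 5 lists, with genes higher in the first tissue above the zero line and genes lower in it below, for all 24 arrays (dark bars) and without the muscle arrays of mice B and D (pale bars). The members' bars for brain against heart are all below the line (6 and 7 genes), and the pale bars are longer for heart against muscle (6 higher and 1 lower, against 2 and 1).

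In skeletal muscle, the arrays of KI mouse B and WT mouse D stood apart from the other 4 in the S, G2 and mitosis genes. Mki67 read 2.31 in mouse B and 1.21 in mouse D against -2.32 to -2.01 in mice A, C, E and F. Birc5 read 2.24 and 1.11 against -3.22 to -2.29. Ccna2 read 0.55 and -0.40 against -4.13 to -3.89. In each of these 3 genes the 4 other arrays lay close together, and the 2 arrays were above every array of liver, brain and heart except for Mki67 in mouse D, which was below the liver of KI mouse A (1.33). Top2a read -2.69 and -3.56 and was not well above background on the other 4, a signal at least 2.85-fold (mouse B) and 1.56-fold (mouse D) theirs. Ccnb1 read -2.10 and -2.55 and was likewise at least 4.26-fold and 3.13-fold the other 4. Cdk1 was well above background in mouse B alone (-2.58, at least 3.08-fold the other 4), with mouse D at -4.62 and mouse A at -4.68.

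The G1 and replication members did not share the step. Ccnd1 read 1.64 in mouse B and 0.62 in mouse D against 0.44 to 1.07, Pcna 2.66 and 2.82 against 2.62 to 2.94, and Mcm2 0.57 and -0.02 against -0.20 to 0.27, so mouse D lay inside the range of the others in all 3 genes. In all, both arrays exceeded the other 4 in 6 of the 9 members that any muscle array read well above background, and by more than 1 on the log2 scale in 5, against 1922 and 248 of the 16038 genes so read. Of those 6, however, Top2a, Ccnb1 and Cdk1 were read well above background on no muscle array but these 2, so they entered the count through the step itself, which leaves Mki67, Birc5 and Ccna2. By the same 2 measures the counts were 28 and 10 of 41 G2 and mitosis genes, among them the kinetochore motor Cenpe (0.15 and -0.83 against -3.87 to -2.89). They were 14 and 3 of 28 origin licensing and DNA synthesis genes, among them Uhrf1, a reader of newly copied DNA (0.49 and -0.71 against -3.84 to -3.10). They were 2 and 0 of 10 G1/S genes, and 0 of 9 DREAM and MuvB genes. Some genes of these lists, such as Cks2 and Cdc6, were also read well above background on no muscle array but these 2. Such genes entered the counts through the step as well, so the counts are descriptions only. As a description, over the 15 pairs among Mki67, Top2a, Ccnb1, Ccna2, Cdk1 and Birc5, deviations from the tissue mean correlated at r = 0.49 to 0.97 (median 0.79, n = 24 arrays), and without those 2 arrays at -0.14 to 0.76 (median 0.37, n = 22). The points share array, mouse and scaling.

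Marrow and bone transcripts moved with these genes on the same 2 arrays. All 7 granulocyte genes on the array (7 of 7) were higher in both mice than in the other 4, and their mean level was 2.78 in mouse B and 2.67 in mouse D against -3.83 to -3.11. Ngp and Mpo, made by granulocyte precursors in marrow, were not well above background on the other 4 arrays, with signals at least 44.7-fold and 47.9-fold higher in mouse B and 39.5-fold and 53.1-fold higher in mouse D. Of 6 erythroid genes 4 were higher in both (mean level -0.44 and -1.51 against -3.12 to -2.33). Of 11 bone genes read well above background in muscle, a list chosen after these arrays were seen, 10 were higher in both (mean level of the 12 on the array -0.13 and 0.30 against -3.65 to -3.32), with Bglap2, an osteocalcin gene, at 5.06 and 5.51 against -6.38 to -0.95. Several bone genes, among them Atp6v0d2, Ibsp and Mmp13, were not well above background on the other 4 arrays. They entered that count through mice B and D, as did Ngp and Mpo in the granulocyte count. Brown fat genes, chosen in the same way, were higher in both for 4 of 6 (2.70 and 2.85 against -0.81 to 0.79), and fibroblast genes for 5 of 6 (4.89 and 5.64 against 3.11 to 4.05). Mouse B alone was also high in T cell genes (-1.48 against at most -3.38 in the others), B and plasma cell genes (-0.81 against at most -2.92) and mammary epithelium genes (-1.14 against at most -4.95). Macrophage and endothelial genes were not set apart (1 of 6 and 0 of 6), and skeletal muscle genes were at 7.66 and 7.96 against 7.91 to 8.14. The part of any of these lists in the levels of the proliferation genes was not tested.

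Without the muscle arrays of mice B and D, the place of muscle among the tissues changed. These arrays were left out after their high Mki67, Birc5 and Ccna2 were seen. Lower muscle levels and a smaller shared spread follow from that choice, so the p-values of those genes here are descriptions and no independent test. Mki67 in muscle (-2.17 ± 0.15, SD, n = 4) was then below liver by a log2 difference of 1.96 (SE 0.30, limma adjusted p 1.02e-05) and below heart by 2.20 (SE 0.30, adjusted p 4.76e-06), where with all arrays these differences were 0.65 (adjusted p 0.367) and 0.89 (adjusted p 0.241). Birc5 in muscle (-2.59 ± 0.44) was then the lowest of the 4 tissues, brain being above by 0.70 (SE 0.21, adjusted p 0.00471), against a brain minus muscle difference of -0.72 with all arrays. For Ccna2 the brain minus muscle difference went from -0.76 to 0.60 (SE 0.20, adjusted p 0.0103), but only 2 of the 4 remaining muscle arrays read it well above background, so its level there lies near background and the size of that difference is uncertain. For Cdk1, Ccnb1 and Top2a, the 4 remaining muscle arrays gave only bounds, with liver at least 1.79-fold, 1.92-fold and 1.25-fold higher. Among members that all 4 arrays read well above background, the range over the 4 was 0.31 for Mki67 and 0.93 for Birc5. Ccnd1, Pcna and Mcm2 were also compared without B and D. The liver, brain and heart minus muscle differences were 3.64, 1.36 and 2.49 for Ccnd1, 0.70, 0.32 and 0.20 for Pcna (the last at a limma adjusted p of 0.0862), and -1.03, -1.54 and -0.69 for Mcm2.

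**Figure D3:**
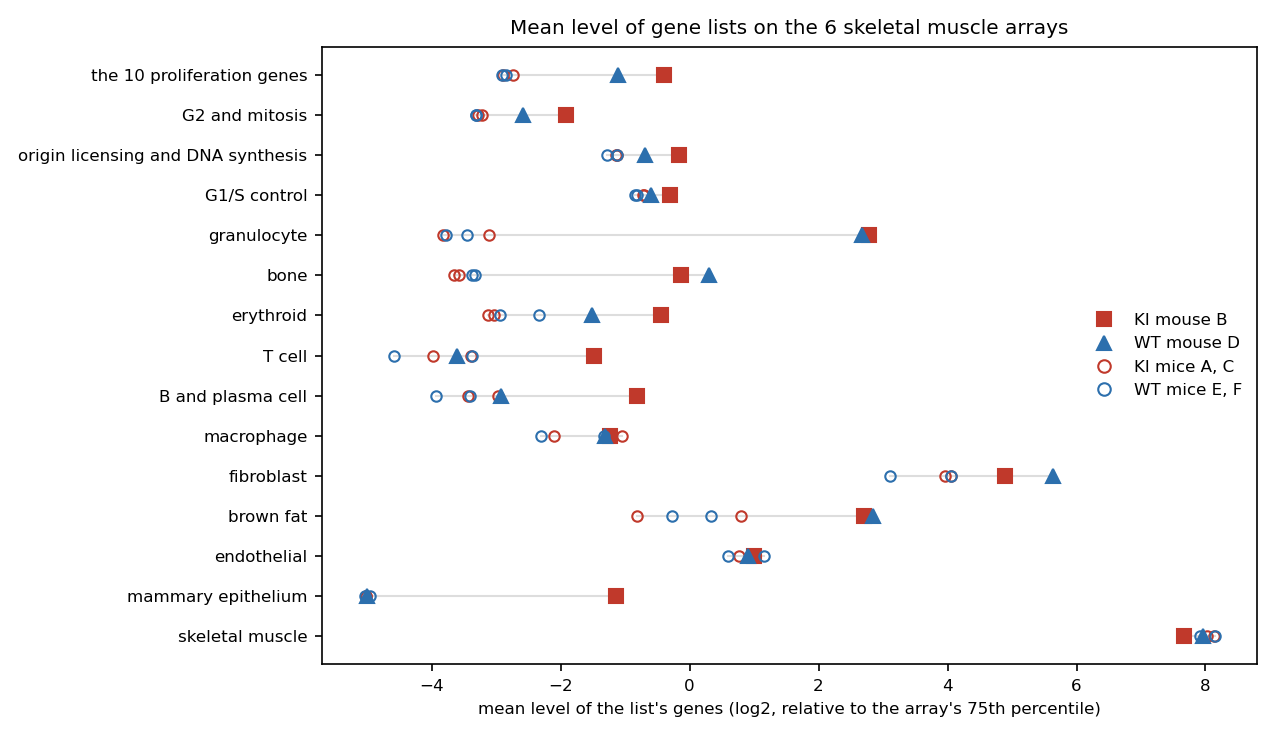
Mean level of the genes of each list (log2 relative to the array's 75th percentile, horizontal axis) on each of the 6 skeletal muscle arrays, with KI mouse B as red squares, WT mouse D as blue triangles and the other 4 mice as open circles. The 2 arrays stand to the right of the others for the proliferation genes and the G2 and mitosis, granulocyte, bone and erythroid lists. They also do for the origin licensing and DNA synthesis, G1/S control, fibroblast and brown fat lists. Mouse B alone stands clear of the others for the T cell, B and plasma cell and mammary epithelium lists. In the B and plasma cell list mouse D is just above the other 4 (-2.92 against at most -2.97).

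No genotype difference passed the threshold in any tissue, for the members or for any other gene. With limma, 0 of 14107 liver genes, 16089 brain genes, 14950 heart genes and 13539 muscle genes had an adjusted p under 0.05 (0.0% in each, and 0.0% of 17314 both for the mean of the 4 tissues and for a genotype effect that varied by tissue). At an unadjusted p under 0.05 there were 11.7% of genes in liver, 0.783% (brain), 1.65% (heart) and 0.849% (muscle), and 3.47% for the mean of the tissues. None of the members tested in a tissue (8 liver, 7 brain, 9 heart, 5 muscle) had an unadjusted p under 0.05 there. In none did KI and WT arrays fail to overlap, which 19.7%, 2.85%, 5.02% and 3.53% of all genes did in these tissues. With 3 arrays against 3, an exact permutation test of a single gene cannot give a p below 0.10, and the mice, not the arrays of one mouse, are the replicates.

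In liver, KI mice A and B were the 2 highest of the 6 mice in Mki67, Birc5, Cdk1 and Ccna2, and KI mouse C was not. In Ccnb1 the highest was WT mouse F (-2.27, against -2.79 and -3.00 in KI mice A and B), and in Top2a WT mouse F (-3.44) was above KI mouse B (-3.51). Mki67 read 1.33, 0.27 and -0.78 in KI mice A, B and C and -0.67, -0.66 and -0.73 in WT mice D, E and F. Mice A and B were above all WT mice and mouse C was the lowest of the 6. The KI minus WT difference was 0.96 (SE 0.49, 95% interval -0.20 to 2.12, limma adjusted p 0.47), and it was 0.43 without KI mouse A and 1.48 (SE 0.32) without KI mouse C, whose liver array carried skeletal muscle transcripts, at an adjusted p of 0.527. Birc5 read 0.15, 0.03 and -0.64 in the KI livers and -0.57, -0.42 and -0.41 in WT (0.32, SE 0.22, adjusted p 0.554). Cdk1 read -2.93, -3.08 and -3.61 against -3.66, -3.43 and -3.48 (0.31, SE 0.20, adjusted p 0.522). Ccna2 read -1.46, -1.71 and -2.22 against -2.77 to -1.81 in WT (0.40, SE 0.31, adjusted p 0.584). In all 4 genes the KI and WT ranges overlapped through KI mouse C. Ccnd1 was the member whose difference was most negative in liver (-0.29, 95% interval -0.72 to 0.14, adjusted p 0.512), with 4.33, 4.45 and 3.99 in KI and 4.80, 4.42 and 4.42 in WT. Over the 8 members tested the median difference was 0.28 and 6 were positive, where the median of all genes was 0.04 and 55.9% were positive. When 1 array was left out, the members' median ran from 0.11 when WT mouse E was dropped, through 0.17 for KI mouse A, to 0.48 for KI mouse C, and it was 0.14 for the mean of all probes.

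Some marker lists of other cell types also differed between the liver arrays, where 19.7% of all single genes did not overlap between genotypes. The mean level of the 8 macrophage genes was 2.44 to 2.67 in KI livers and 1.84 to 2.17 in WT livers, and that of the 7 granulocyte genes -0.89 to -0.60 against -1.51 to -1.05, without overlap in either list, and the same held for the 6 fibroblast genes (1.79 to 2.10 against 1.32 to 1.47), all 8 macrophage genes being well above background on all 6 arrays and the granulocyte genes 5 to 7 of 7. The macrophage list was highest in KI mouse C, the mouse with the lowest Mki67 and Birc5. The T cell list read -0.65, -1.10 and -1.76 in KI mice A, B and C and -1.01, -1.41 and -1.81 in WT mice D, E and F, and the B and plasma cell list -0.15, 0.05 and -1.45 against -0.10, -2.02 and -2.02, so that both overlapped. Overlap was also seen for the endothelial (-0.13 to 0.17 in KI against -0.24 to 0.02 in WT), erythroid (-3.13 to -2.55 against -3.08 to -2.49) and hepatocyte lists (7.87 to 7.95 against 7.62 to 8.26). The part of these cells in the levels of Mki67 and the other members was not tested.

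In brain and heart, the members tested had small median differences between genotypes. Cdk1 was not tested in brain. It read -5.83, -6.02 and -5.71 in KI and -7.22, -6.38 and -7.12 in WT, without overlap. Only 3 of these 6 arrays read Cdk1 well above background, so the size of that difference is uncertain. The median difference was 0.03 over 7 members in brain (all genes -0.03) and 0.08 over 9 members in heart (all genes -0.05). Without KI mouse A the brain median was -0.03, and 0.16 without KI mouse B, while the heart median was -0.06 without WT mouse E and 0.32 without WT mouse F, so that both medians changed sign when single mice were left out. Mki67 in brain read -3.31, -3.71 and -2.52 in KI and -3.39, -3.69 and -3.29 in WT (0.28, 95% interval -0.44 to 1.01). In heart it read 0.18, -0.06 and 0.18 against -0.13, -0.30 and 0.34 (0.13, 95% interval -0.33 to 0.59). The 95% interval in heart was -0.35 to 0.41 for Top2a and -0.39 to 0.64 for Birc5, so with 3 mice per genotype differences within those bounds were not excluded. In muscle the median over 5 members was 0.28, but without KI mouse B it was -0.09, without WT mouse E -0.13, and without mice B and D -0.07, and the interval of Mki67 ran from -3.11 to 3.75.

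**Figure D4:**
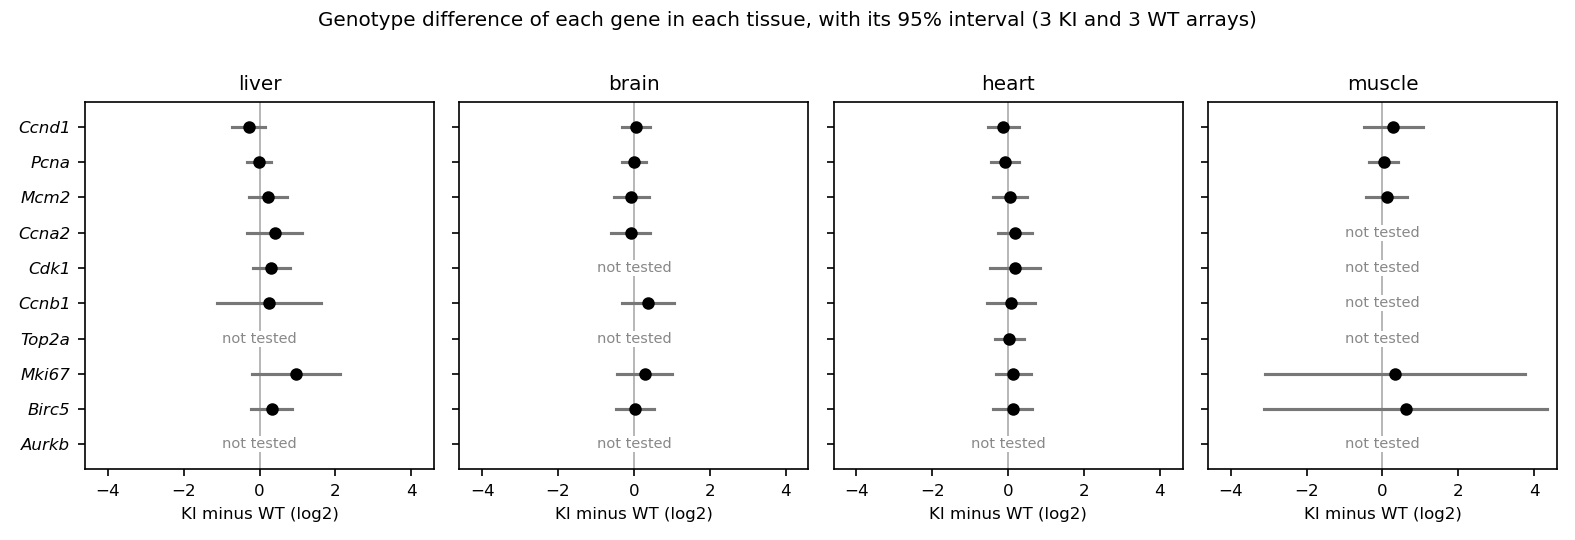
KI minus WT difference (log2, horizontal axis) of each gene in each tissue, as a point with its 95% interval from limma on 3 KI and 3 WT arrays. Genes not well above background on all 3 arrays of a genotype are marked as not tested. Every interval includes 0, and those of Mki67 and Birc5 in muscle are the widest, at -3.11 to 3.75 and -3.11 to 4.34.

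Averaged over the 4 tissues of each mouse, Cdk1 was the 1 member of 9 with an unadjusted p under 0.05. The mean level of Cdk1 was -4.39, -4.12 and -5.04 in KI mice A, B and C and -4.99, -5.36 and -5.37 in WT mice D, E and F, so that KI mouse C lay within the WT range. The difference was 0.73 (SE 0.25, limma unadjusted p 0.0253, adjusted p 0.983), between 0.53 without KI mouse B and 0.99 without KI mouse C when 1 mouse was left out, 0.64 without the muscle arrays of mice B and D, 0.46 for the mean of all Cdk1 probes and 0.30 with normexp background correction. Only 3 of 4 arrays of each KI mouse and 2 of 4 of each WT mouse read Cdk1 well above background. By tissue, the KI and WT means of Cdk1 were -3.21 and -3.52 in liver and -4.47 and -4.64 in heart. They were -5.85 and -6.91 in brain and -4.54 and -5.90 in muscle. In brain and muscle Cdk1 was well above background on 3 and 1 of 6 arrays and was not tested. No member passed the test of a genotype effect that differs between tissues (adjusted p 1 for each of the 9).

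The lists beside the members gave the same count of 0 calls between genotypes. In liver, 27 of 32 G2 and mitosis genes tested had a positive difference (median 0.31, all genes 0.04, of which 55.9% were positive), 4 with an unadjusted p under 0.05, near the 11.7% of all genes, of which Anln had the smallest: -1.95 ± 0.15 (SD, n = 3) in KI against -2.49 ± 0.13 in WT (0.54, SE 0.14, limma adjusted p 0.359). Of 27 origin licensing and DNA synthesis genes, 20 were positive (median 0.16), and of 11 G1/S genes 9 were positive, Cdk2 having the smallest p (-0.35, SE 0.15, adjusted p 0.434). Cdkn2a, which encodes p16 and p19ARF and rises in senescent cells, read -1.36 ± 0.28 in KI livers and -1.97 ± 0.09 in WT (0.61, SE 0.17, adjusted p 0.379). The DREAM and MuvB genes leaned the other way, with 2 of 9 positive, 4 of 9 lower in every KI liver than in every WT liver (19.7% of all genes did not overlap in either direction), and a median of -0.26, led by Rbbp4, a histone-binding subunit (3.73 ± 0.19 against 4.48 ± 0.15, -0.75, SE 0.15, adjusted p 0.357).

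In the other tissues the genes of smallest p in each list did not pass either. In brain they were E2f2 (0.16), Tk1 (0.86), Spc25 (0.30), Cdkn2a (-0.29) and Rbbp4 (-0.34), each at a limma adjusted p of 1. In heart they were E2f1 (0.28), Cdc6 (0.44), Cenpf (-1.04), Cdkn1c (-0.23) and Rbbp4 (0.64, SE 0.23), each at an adjusted p of 0.971. In muscle they were E2f2 (0.77), Prim1 (0.37), Ndc80 (0.59), Cdkn1a (0.48) and E2f4 (-0.36), each at 1. The genotype difference of Rbbp4 had opposite signs in liver and heart, and that contrast was not tested on its own.

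The second Mki67 probe, well above background on all 24 arrays, read 2.30 in mouse B and 1.10 in mouse D against -3.01 to -2.75 in the other 4, and 1.22 in the liver of KI mouse A against -1.22 to 0.01 in the other livers. For Birc5 the other probes were well above background on 14 and 11 arrays, and the first of them did not separate mouse D (-4.01) from the other 4 (-6.37 to -3.62), while the second read -3.20 and -3.60 in mice B and D against -6.54 to -4.43. The other probes of Ccnb1 were well above background on 1 array each, and those of Cdk1 on 0, so those genes rest on 1 probe. Top2a, Ccna2, Ccnd1, Pcna, Mcm2 and Aurkb had only 1 probe each on the array.

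Among the 12991 other genes well above background on at least 20 arrays, those whose level was most like that of Mki67 over the 24 arrays were Hmgb2, a chromatin protein (Pearson r = 0.973), Uhrf1 (0.955), Spn (0.942), Tspan32 (0.934) and Pheta2 (0.923). For deviations from the tissue means they were Cdca5 and Uhrf1 (both 0.967), H2ac23 (0.963), Cenpe (0.955) and Hmgb2 (0.952), and without the muscle arrays of mice B and D the nearest were Gypc (0.857) and Hmgb2 (0.855). Those most like Ccnd1 in level were Trappc6a (0.972), Plxnb2 (0.971), Aldh1b1 (0.968), Gk (0.965) and Spata13 (0.963), and in deviations Sf3b3 (0.777), Bahd1 (0.763), Setd1b (0.761) and Swap70 (0.757). The arrays share mice and tissues, and these correlations are descriptions only.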

How the data were processed

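Total RNA labelled with Cy3 was hybridised to 1-colour Agilent mouse arrays. Per the file headers, the authors extracted each spot's intensity with Agilent Feature Extraction 12.0.3.1, and the deposited processed intensity is corrected for background but not normalized between arrays. The score table that the authors deposited holds z-scores of the same log2 intensity and served as an alternative.

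Of 62976 spots per array, 59305 were not controls. Control spots and 121 to 347 spots flagged as outliers per array were left out, and 0 were saturated. Spots of a probe were averaged, and log2 intensity was taken minus each array's 75th percentile. Probes were named through RefSeq accessions (GRCm38.p6), and the probe with the highest mean stood for a gene. Coordinates of promoters are from the same RefSeq table. With 3 arrays per group, the number of mice limits the precision.

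Tests used lmFit and eBayes of limma 3.58.1 (R 4.3.3) and were two-sided, with p-values adjusted over all genes tested by the Benjamini-Hochberg method at a threshold of 0.05. Genotypes were compared within the 6 arrays of a tissue, among genes well above background on all 3 arrays of a genotype, and tissues were compared in a fit of all 24 arrays. The fits were tested on simulated data. Of each pathway list, the text names the 2 largest and 2 smallest differences past the threshold for liver against brain, liver against heart and brain against muscle, and the gene of smallest unadjusted p per tissue between genotypes; genes of the muscle marker lists and Cenpe and Uhrf1 in muscle were named after their values were seen. The members and lists were chosen with earlier results of these data known. Some results that this rule or the likeness rule would name are not reported here. Of the genes in all lists, 5 were not found on the array by symbol. Alternatives covered normalization, background correction, filters, probes, blocks, array weights and left-out replicates. The cell type lists of endothelial, cardiomyocyte and neuron genes served to check tissue labels.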

Additional observations from a re-analysis of the deposited data

How the results depend on the processing

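For members past the threshold in a tissue comparison, and for Cdk1 in the mean of the tissues, 454 differences were recomputed, of which 420 kept both the sign and the call, 32 kept the direction and lost the call, and 2 reversed. Pcna in liver against brain reversed with quantile normalization (-0.21), a setting that moved the median of all genes in that comparison from 0.14 to -0.10, and Top2a in heart against muscle reversed with normexp background correction (-0.30). The cause was not tested. Counts of positive members over all those tested also moved: in heart against muscle 7 of 8 were positive as reported and 4 with normexp, and in brain against muscle 2 of 6 as reported and 4 without mouse B. Quantile normalization also moved the median of all genes from -0.16 to 0 for brain against heart, from -0.20 to 0.08 for brain against muscle and from -0.01 to 0.11 for heart against muscle, and normexp moved the last to -0.13.

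Counts of genes called between genotypes moved from 0 to 3 in liver with a fit of all 24 arrays, both without a block and with mouse as the replicate block, to 1 for the mean of 4 tissues without the muscle arrays of mice B and D (a setting chosen after seeing the data) and to 1 for the difference between tissues with quantile normalization. Without each replicate in turn these counts were 0 to 1 in heart, highest when KI mouse C was left out, 0 to 5 in muscle, highest when KI mouse A was left out, and 0 to 1 between tissues. In the genotype fits with mouse as the replicate block, the intra-mouse correlation was between -0.0022 and -5e-04. In the tissue comparisons the block by mouse was a fixed term of the fit. It moved the number of members past the threshold by at most 1, to 7 for liver against brain and 4 for heart against muscle.

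The number of members past the threshold moved by over 1.5 times from 4 to 2 for liver against heart with quantile normalization and with slide as a block, from 4 to 7 for liver against muscle and from 3 to 6 for heart against muscle with array weights, to 7 in each of these without the muscle arrays of mice B and D, and from 4 to 7 for brain against muscle with no filter on dim probes. Without each replicate in turn, it was 2 to 4 for liver against heart (2 without mouse A), 4 to 7 for liver against muscle and 2 to 6 for heart against muscle (7 and 6 without mouse B). Signal over background limits Aurkb everywhere and Top2a, Ccnb1 and Cdk1 in brain and muscle.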
